A study of Mus musculus with 14 samples.

Results

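The CCN matricellular genes described here are Ccn1, Ccn2 and Ccn3, earlier named Cyr61, Ctgf and Nov. They were taken by gene symbol, all 3 were measured, and each was represented by the probe set naming only that gene with the highest mean over the arrays, among 17097 genes so represented. The members were chosen by gene family and selected on measured values of these arrays, among them that Ccn2 was one of the genes with the largest difference between fasted and fed mice. Their fasting differences are therefore given as descriptions with a standard error (SE) and without a test.

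The RNA was total RNA of the hypothalamus of mice 12 weeks old on a mixed C57Bl/6J, FVB/N and 129 background, measured on 14 Affymetrix arrays. The 4 groups were POMCMfn1KO mice fasted for 16 h (knockout fasted, n = 3), POMCMfn1KO mice fed at will (knockout fed, n = 4), control mice fasted for 16 h (control fasted, n = 3) and control mice fed at will (control fed, n = 4). The knockout removes Mfn1, a protein of mitochondrial fusion, from neurons that express pro-opiomelanocortin, which are a small part of the tissue. The labels give neither the alleles of the controls nor whether an array holds RNA of 1 mouse, and p-values therefore cover only the variation seen from array to array, which may be technical.

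CCN proteins are secreted into the extracellular matrix, where they bind integrins and heparan sulfate proteoglycans and modify how cells respond to growth factors and to adhesion. Ccn1 and Ccn2 are standard target genes of the transcriptional co-activators YAP and TAZ, which act through TEAD factors, and Ccn1 is also an immediate early gene of growth factor signalling. In the mouse brain Ccn2 is known as a marker of neurons of the deepest cortical layer and is also made by vascular cells and glia, while Ccn3 is known from neurons of the cortex and hippocampus.

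The sequence before the transcription start of Ccn1 is shown because it holds a TEAD motif of the kind through which YAP and TAZ act. It comes from RefSeq's GRCm38.p6, chr3:145649986-145650235, minus strand, 250 bases written 5′ to 3′ up to the base before the start. Capitals mark the TEAD motif (GGAATG, here on the opposite strand) and the TATA box (TATAAA).
Ccn1: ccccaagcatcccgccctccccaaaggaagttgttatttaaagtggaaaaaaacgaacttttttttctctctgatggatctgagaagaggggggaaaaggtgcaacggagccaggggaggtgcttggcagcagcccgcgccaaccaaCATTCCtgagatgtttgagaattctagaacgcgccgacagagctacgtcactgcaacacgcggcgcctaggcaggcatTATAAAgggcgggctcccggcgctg
The TEAD motif began 103 and the TATA box 25 bases before the start. On both strands together, GGAATG was found in 12.6% and TATAAA in 13.0% of the 27025 promoters searched over the same length. A short cAMP response element (TGACG), present in 17.9% of promoters, lay at 58 bases on the opposite strand. Neither an AP-1 site (TGANTCA, 6.9% of promoters), a short glucocorticoid receptor motif (AGAACA, 16.2%) nor an SRF CArG box (1.4%) was in these letters. The TEAD, TATA, cAMP and AP-1 letters were searched as plain letters and do not overlap one another here. Promoters of Ccn2 and Ccn3 were not used here.

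All values are log2 expression values. Array medians lay between 4.98 and 5.05, and 23 control probe sets without a target had a median of 3.64, the level of background signal. Mfn1, the deleted gene, was between 9.03 and 9.12 (median 9.04) on the 7 knockout arrays and between 8.99 and 9.10 (median 9.07) on the 7 control arrays, and since the place of its probes relative to the deleted part is unknown, it does not check the labels. Markers of hypothalamic neurons were present, from Pmch, the precursor of melanin-concentrating hormone, at 12.06 to 12.63 down to the transcription factor gene Otp at 3.61 to 4.0, which is near background. Fed arrays stood apart in a pair of cases. Control fed replicate 1 and knockout fed replicate 4 had the highest scores for 10 markers of cortex, hippocampus and amygdala, 0.624 and 0.187, against at most 0.050 on the other 12 arrays. A list's score on an array averages its genes after the mean over all arrays was subtracted from each gene. All 6 fasted arrays and knockout fed replicate 1 carry numbers of a lower series in their titles and the other 7 fed arrays numbers of a higher one, so feeding and number series largely coincide.

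**Figure D1:**
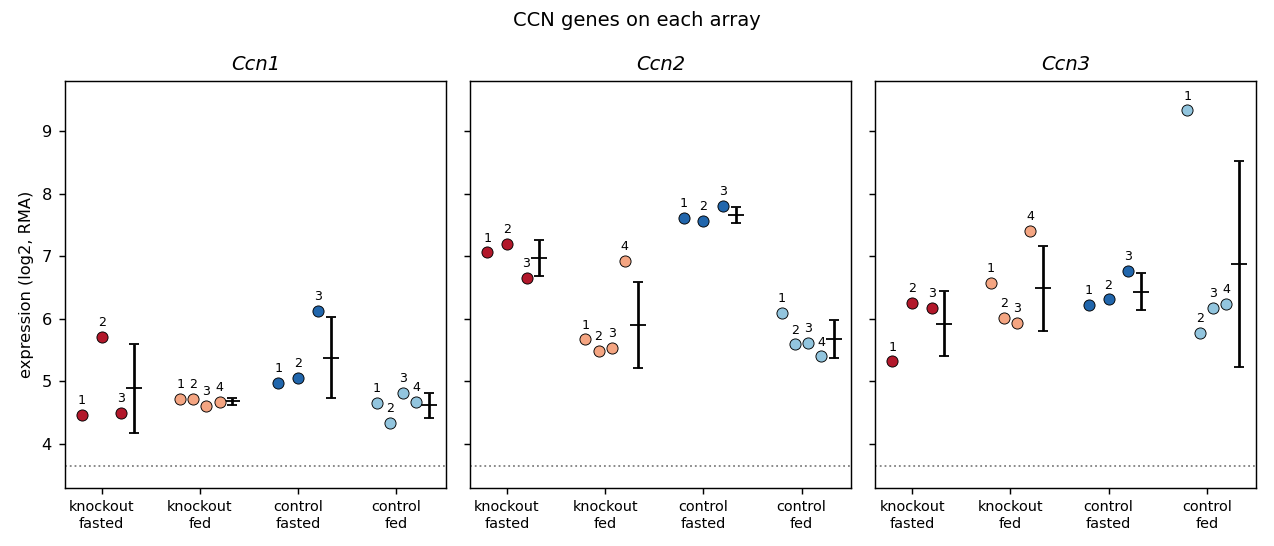
Expression (log2, RMA) of Ccn1, Ccn2 and Ccn3 on each array by group, with replicate numbers above the points; black bars are the mean ± SD (n = 3 fasted, 4 fed) and the dotted line is the background median of 3.64. Ccn2 sits higher on every fasted array than on the fed arrays other than knockout fed replicate 4, and Ccn3 stands out at 9.33 on control fed replicate 1.

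Ccn2, also known as connective tissue growth factor, was higher in fasted than in fed mice of both genotypes. It was at 7.06, 7.20 and 6.65 on the knockout fasted arrays and at 5.67, 5.48, 5.54 and 6.92 on the knockout fed arrays. In control mice it was at 7.61, 7.56 and 7.81 fasted and at 6.10, 5.59, 5.62 and 5.40 fed. Fasted and fed control arrays did not overlap, as was the case for 16.5% of all genes. In knockout mice the groups overlapped through fed replicate 4, which was above fasted replicate 3, while 13.0% of all genes had no overlap there and 3.40% had none in both genotypes.

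The fasted minus fed difference of Ccn2 was 1.07 ± 0.29 (SE) in knockout mice and 1.98 ± 0.29 in control mice, or 2.10-fold and 3.95-fold. Averaged over the genotypes it was 1.53 ± 0.20, or 2.88-fold. Over all genes 0.696% passed in knockout mice (0.468% higher, 0.228% lower), 2.76% in control mice (1.64% higher, 1.12% lower) and 10.0% on average (5.14% higher, 4.90% lower), at an adjusted p under 0.05 in limma. These shares depend on single arrays. In knockout mice 119 genes passed, and 18 did without fasted replicate 2 and 363 without fasted replicate 3. In control mice 472 passed, and 216 did without fasted replicate 3. On average 1715 passed, and 998 did without knockout fasted replicate 2 and 15 with a term for the number series. Without knockout fed replicate 4 and control fed replicate 1 the differences were 1.41 ± 0.13 in knockout mice, 2.12 ± 0.13 in control mice and 1.77 ± 0.09 on average. Knockout fed replicate 1, the fed array of the lower number series, was at 5.67 and thus within the range of the fed group. With a term for the number series, the averaged difference was 1.80 ± 0.44. Only the knockout fed group holds both series, so the term rests on its replicate 1 against its other arrays. It cannot separate the number series from fasting in control mice.

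Knockout fed replicate 4 also stood apart for genes that glucocorticoids induce. The score of 13 such genes on it was -0.077, against -0.557 to -0.477 on the other knockout fed arrays, and against 0.064 to 0.940 on the knockout fasted arrays. Sgk1, a kinase gene that glucocorticoids induce, was at 10.79 on it and at 9.35 to 9.41 on the other knockout fed arrays. On this array the score lay between the other knockout fed and the knockout fasted levels, and Ccn2 lay within the knockout fasted range. On control fed replicate 1, where Ccn2 was at 6.10, the score of -0.456 was close to the -0.594 to -0.472 of the other control fed arrays. The score of 9 markers of cortical layer 6b and the deep layers was highest on this array, at 0.507, against at most 0.120 elsewhere. On knockout fed replicate 4 that score was 0.079, against -0.190 to 0.065 on the other knockout fed arrays. The part of these lists in the values of Ccn2 was not tested.

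Vascular and glial markers also differed between fasted and fed arrays. Of 12 endothelial markers 3 fell after the fast, Cdh5 (-0.30 ± 0.05), the angiopoietin receptor Tek (-0.64 ± 0.12) and Emcn (-0.62 ± 0.13), with adjusted p of 0.00449, 0.00665 and 0.0123 in limma, and 0 rose, beside 4.90% lower and 5.14% higher over all genes. Cdh5 was at 0.08 with its probe set of next highest mean, and Tek and Emcn were at -0.33 and -0.34 with the endothelial score, which holds them, as a covariate. Their mean log2 level lay between 6.61 and 6.87 in knockout fasted, 6.75 and 6.96 in knockout fed, 6.56 and 6.78 in control fasted and 6.73 and 7.05 in control fed mice, with Tie1 near background. Of 8 pericyte and smooth muscle markers 3 fell, Vtn, Mcam and Kcnj8 (-0.43 to -0.36), beside the same shares over all genes. Of 10 astrocyte markers 4 rose, Agt, Fgfr3, Gjb6 and Aldh1l1 (0.33 to 0.72), and 1 fell, beside those shares too. The marker that fell was Aqp4 (-0.36 ± 0.06, adjusted p = 0.00226 in limma), chosen after its values were seen. The other astrocyte markers, at 0.06 to 0.22, did not pass. The astrocyte markers had a mean level of 8.88 to 8.93 in knockout fasted, 8.67 to 8.72 in knockout fed, 8.92 to 9.07 in control fasted and 8.66 to 8.76 in control fed mice. In 22 other settings, among them the endothelial score as a covariate, the averaged fasting difference of Ccn2 ran at 1.44 to 1.80. The part of these cell types in the difference of Ccn2 was not tested, and in whole tissue fewer cells of a type and less RNA per cell cannot be told apart.

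Ccn1, known as CYR61, was low, on most arrays around 1 log2 unit above background. It was at 4.46, 5.71 and 4.50 on the knockout fasted arrays, against 4.72, 4.72, 4.61 and 4.67 on the knockout fed arrays. The control fasted arrays were at 4.97, 5.05 and 6.12, against 4.66, 4.33, 4.81 and 4.67 on the control fed arrays. The high values were those of control fasted replicate 3 and knockout fasted replicate 2. The other 2 knockout fasted arrays were below every knockout fed array.

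The fasted minus fed difference of Ccn1 was 0.21 ± 0.30 in knockout mice and 0.76 ± 0.30 in control mice, and 0.49 ± 0.21 on average. Without knockout fasted replicate 2 it was -0.20 ± 0.25 in knockout mice. Without control fasted replicate 3 it was 0.39 ± 0.27 in control mice. With the other probe set of the gene, which lay at 3.91 to 4.56, the differences were -0.01 ± 0.14 in knockout mice and 0.36 ± 0.14 in control mice. With the endothelial score as a covariate they were -0.01 ± 0.23 and 0.16 ± 0.29. Members of this score fell after the fast themselves, so the covariate can also take out part of a fasting difference. These values therefore do not show what part of the difference goes with vascular content.

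The pair of arrays with high Ccn1 had the highest scores of the glucocorticoid-induced genes, 0.940 on knockout fasted replicate 2 and 1.064 on control fasted replicate 3, against at most 0.749 on the others. They also had the highest scores of 14 immediate early genes, 0.134 and 0.257, against at most 0.114 elsewhere, and the lowest of the endothelial markers, -0.227 and -0.282, against -0.106 or more elsewhere. Fos, the best known immediate early gene, did not follow Ccn1 within knockout fasted mice, where it was at 8.31 on replicate 2 and at 8.40 and 9.05 on the others. The part of these gene groups in the values of Ccn1 was not tested.

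Ccn3, also known as NOV, varied widely within the fed groups, with ranges of 1.47 in knockout and 3.56 in control mice. The ranges were 0.94 in knockout fasted and 0.55 in control fasted mice, and the group means lay between 5.92 and 6.88. Ccn3 was at 5.32, 6.26 and 6.18 in knockout fasted mice, against 6.58, 6.02, 5.94 and 7.41 in knockout fed mice. In control mice it was at 6.22, 6.31 and 6.77 fasted, against 9.33, 5.77, 6.18 and 6.24 fed. Control fed replicate 1 was the highest array and knockout fed replicate 4 the next, and without them the fed arrays of both genotypes lay at 5.77 to 6.58, overlapping the fasted range of 5.32 to 6.77. The second probe set of the gene had the same pair of arrays at the top, at 8.06 and 6.02, against 4.42 to 5.68 on the other arrays.

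The fasted minus fed difference of Ccn3 was -0.57 ± 0.67 in knockout mice and -0.45 ± 0.67 in control mice, and -0.51 ± 0.48 on average. The sign in control mice and on average changed with these arrays. Without both of them the differences were -0.26 ± 0.26, 0.37 ± 0.26 and 0.06 ± 0.18. With the score of the cortex, hippocampus and amygdala markers as a covariate they were 0.12 ± 0.34, 0.55 ± 0.36 and 0.33 ± 0.26.

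Markers of neighbouring brain regions stood beside Ccn3 on the arrays where it was high. The 10 cortex, hippocampus and amygdala markers, none of them near background, had a mean log2 level of 6.04 to 6.18 in knockout fasted, 6.14 to 6.40 in knockout fed, 6.07 to 6.18 in control fasted and 6.13 to 6.84 in control fed mice. The tops of both fed ranges were the arrays with high Ccn3. Camk2a, a kinase gene of forebrain excitatory neurons, was at 11.87 on control fed replicate 1 and at 11.44 on knockout fed replicate 4, against 10.98 to 11.23 elsewhere. Markers of meningeal and perivascular fibroblasts followed the same pair, with scores of 0.618 and 0.487 against at most 0.104 elsewhere, and the hypothalamic neuron markers had their lowest score, -0.618, on control fed replicate 1, against -0.158 or more elsewhere. The part of these tissues in the values of Ccn3 was not tested.

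The averaged fasting contrast was also read for the markers of these and other cells, beside 10.0% of all genes passing (5.14% higher, 4.90% lower), and each of these lists had at most 1 gene past the test. Of 10 cortex, hippocampus and amygdala markers 1 fell, Prox1 (-0.31 ± 0.08, adjusted p = 0.0332 in limma), which was at 0.12 with the probe set of next highest mean. Of 9 markers of cortical layer 6b and the deep layers 1 fell, Lxn (-0.49 ± 0.06, adjusted p = 0.000255). Of 12 hypothalamic neuron markers 1 rose, Npy, the neuropeptide Y gene of hunger neurons (0.78 ± 0.14, adjusted p = 0.00432), and of 8 tanycyte markers 1 rose, Vcan (0.37 ± 0.09, 0.0237), which was at 0.15 with its probe set of next highest mean and passed in 16 of 24 other settings. Of 10 meningeal, 7 ependymal and 8 choroid plexus markers 0 passed. The meningeal markers with the smallest p differed in sign, Pdgfra at 0.17 ± 0.07 and Lum at -0.38 ± 0.18. The ependymal ones were Rarres2 at -0.21 ± 0.08 and Ccdc153 at -0.19 ± 0.12, and those of the choroid plexus Clic6 at 0.34 ± 0.22 and Ttr at 0.66 ± 0.72. Lum passed in 1 of 23 and Rarres2 in 3 of 24 other settings.

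**Figure D2:**
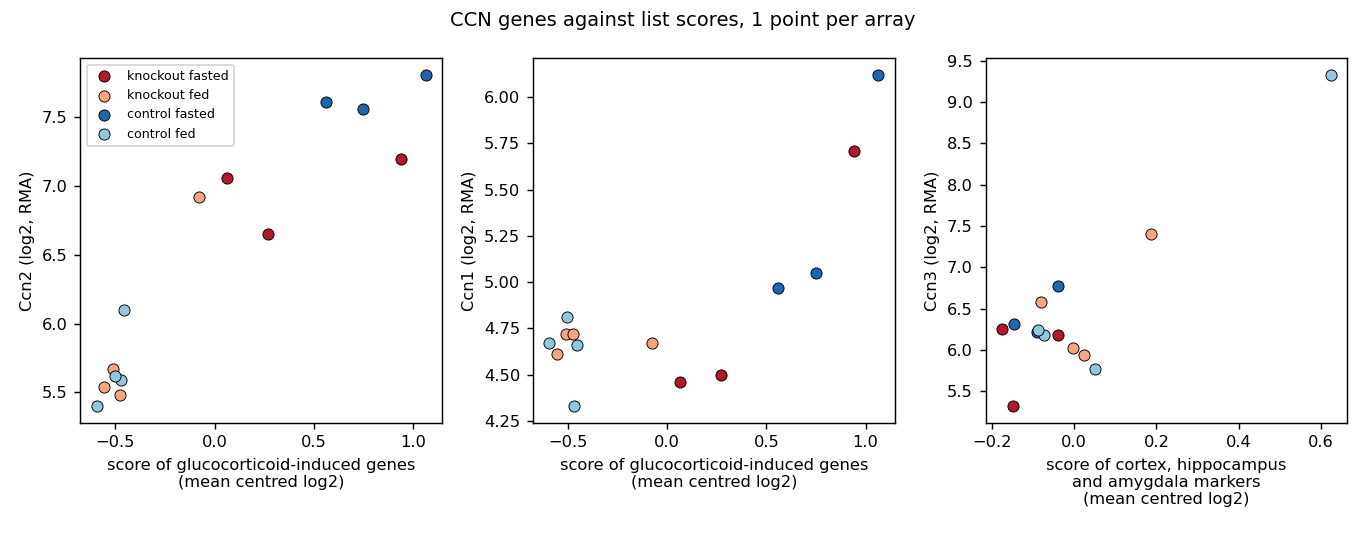
Each point is an array, coloured by group; the y axes give Ccn2, Ccn1 and Ccn3 (log2, RMA) and the x axes the score of the glucocorticoid-induced genes (left and middle) or of the cortex, hippocampus and amygdala markers (right), as mean centred log2 values. Knockout fed replicate 4 lies at -0.077 and 6.92 in the left panel, apart from the other fed arrays, and control fed replicate 1 at 0.624 and 9.33 in the right panel.

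The deletion of Mfn1 was tested against the spread between arrays in fed mice, in fasted mice and on average. The 3 genes did not pass in any of these contrasts in limma with Benjamini-Hochberg adjustment over all genes. The averaged knockout minus control difference was -0.21 ± 0.21 for Ccn1 (95% interval -0.67 to 0.24), -0.23 ± 0.20 for Ccn2 (-0.67 to 0.21) and -0.45 ± 0.48 for Ccn3 (-1.48 to 0.57), each with an adjusted p of 0.999. In fed mice it was 0.06 ± 0.27, 0.23 ± 0.27 and -0.39 ± 0.62, with adjusted p of 0.995 each. The fed groups overlapped for each of the 3 genes and did not for 2.46% of all genes. Of all genes 0.00585%, that is 1 gene, passed in the averaged and in the fed contrast, where 795 and 790 genes had an unadjusted p under 0.05.

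In fasted mice the arrays of the genotypes did not overlap for Ccn2. The 3 knockout fasted arrays, at 6.65 to 7.20, were all below the 3 control fasted arrays, at 7.56 to 7.81, and 7.64% of all genes had no overlap between these groups. The difference was -0.69 ± 0.31 (95% interval -1.36 to -0.02), with an unadjusted p of 0.0433 and an adjusted p of 1.0 in limma. For Ccn1 it was -0.49 ± 0.32 (-1.17 to 0.19) and for Ccn3 -0.51 ± 0.72 (-2.06 to 1.04), with an adjusted p of 1.0 each. In this contrast 0% of genes passed and 661 had an unadjusted p under 0.05. The score of the choroid plexus markers did not overlap between these groups either, at 0.814, 0.816 and 0.799 on the knockout fasted arrays, against -0.105, -0.095 and -1.404 on the control fasted arrays. The 8 markers had a mean log2 level of 7.98 to 8.0 in knockout fasted mice and 5.78 to 7.09 in control fasted mice, with none near background, and 0 passed. With this score as a covariate the difference of Ccn2 was -0.95 ± 0.33 (adjusted p = 0.999 in limma). The choroid plexus was not alone in this. Ependymal marker scores were 0.081 to 0.168 on the knockout fasted and -0.292 to -0.002 on the control fasted arrays. Scores of the cortical layer 6b and deep layer markers were -0.092 to 0.027, against -0.198 to -0.126. The part of these lists in the difference of Ccn2 was not tested.

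The fasting difference of Ccn2 was smaller in knockout than in control mice by 0.91 on the log2 scale (-0.91 ± 0.41, 95% interval -1.80 to -0.03). Its adjusted p was 1.0 and its unadjusted p 0.0429 in limma, in a contrast where 0% of genes passed and 654 had an unadjusted p under 0.05. Knockout fed replicate 4 carried part of this size. Without it the difference was -0.58 ± 0.23, and without it and control fed replicate 1 it was -0.72 ± 0.18, with an adjusted p of 0.999 each. For Ccn1 the difference of the fasting differences was -0.55 ± 0.42 (-1.46 to 0.35) and for Ccn3 -0.12 ± 0.95 (-2.17 to 1.93), both with an adjusted p of 1.0.

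**Figure D3:**
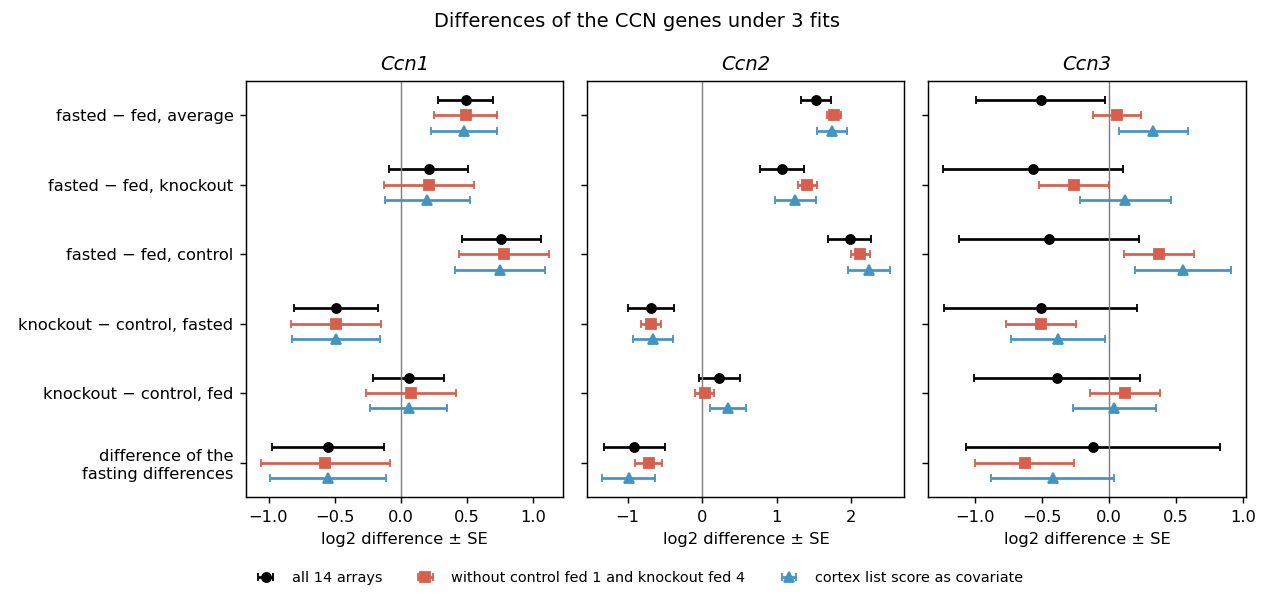
Log2 differences ± SE of Ccn1, Ccn2 and Ccn3 for each comparison, fitted on all 14 arrays (circles), without control fed replicate 1 and knockout fed replicate 4 (squares) and with the cortex list score as a covariate (triangles); the x ranges differ between panels. The fasting differences of Ccn2 are above 0 in each of these fits, and those of Ccn3 move across 0, on average between -0.51 and 0.33.

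The other members of the family gave little signal. Ccn4, Ccn5 and Ccn6, earlier named Wisp1, Wisp2 and Wisp3, lay at 4.11 to 4.42, 3.9 to 4.43 and 3.79 to 4.18 over all arrays, so that Ccn5 and Ccn6 had means within 0.5 of the background. Of these 3 genes 0 passed in the averaged fasting contrast, with Ccn4 at -0.06 ± 0.05 (adjusted p = 0.469) and Ccn5 at 0.05 ± 0.08 (adjusted p = 0.749) in limma.

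Receptors that bind CCN proteins were examined next. Of 13 measured receptors and partners 2 rose, 1 fell and 10 did not pass, with a median of 0.06 beside 0.00 over all genes, of which 5.14% rose and 4.90% fell. Itgav, the integrin chain alpha V that pairs into receptors of CCN proteins, rose by 0.34 ± 0.06 (adjusted p = 0.00279 in limma), and was at 0.07 (adjusted p = 0.68) with its probe set of next highest mean. The heparan sulfate proteoglycan gene Sdc4 rose by 0.52 ± 0.13 (adjusted p = 0.0219). It was at 1.76 with its probe set of next highest mean, and did not pass without knockout fasted replicate 2 (adjusted p = 0.0613) or without control fasted replicate 3 (0.0535). Itga6, the integrin chain alpha 6, fell by 0.43 ± 0.10 (adjusted p = 0.0178), and was at -0.28 (0.246) with the endothelial score as a covariate.

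Factors known to control Ccn1 and Ccn2 in other tissues came next. Of 14 genes of the Hippo pathway and its factors 3 rose and 0 fell, beside 5.14% and 4.90% of all genes, the Hippo activator Nf2 (0.32 ± 0.05, adjusted p = 0.003), Tead1 (0.36 ± 0.08, 0.0177) and Tead3 (0.18 ± 0.05, 0.0351), with a median of -0.08. Tead3 passed in 9 of 23 other settings and was at 0.31 ± 0.07 in knockout and 0.04 ± 0.07 in control mice, and the genotypes did not differ past the test (adjusted p = 1.0 in limma). Nf2 was at 0.16 (adjusted p = 0.0884) as the mean of its probe sets. Yap1 was at -0.22 ± 0.11 (adjusted p = 0.234) and Wwtr1, which encodes TAZ, at -0.19 ± 0.08 (0.139), both chosen after their values were seen. Of 20 other YAP and TAZ target genes 2 rose, the tissue factor gene F3 (0.65 ± 0.11) and the ectonucleotidase gene Nt5e (0.51 ± 0.11), 1 fell, Fjx1 (-0.46 ± 0.08), and 17 did not pass. Their median was 0.08, and of all genes 5.14% rose and 4.90% fell. Whether the counts of this list differ from those shares was not tested. The classical target Ankrd1, chosen after its values were seen, was at 0.15 ± 0.07 (adjusted p = 0.164) and near background. With the probe set of next highest mean Nt5e was at -0.01.

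Of 11 genes of SRF, its co-factors and their targets 1 fell, Tpm1 (-0.21 ± 0.06), and of 12 TGF-beta pathway genes 1 rose, the signal transducer Smad4 (0.20 ± 0.04), with medians of -0.07 and -0.06. Both counts are near the 10.0% of all genes that passed. Smad4 was at 0.06 with its probe set of next highest mean. Tpm1 passed in 5 of 24 other settings. Among 10 other matricellular genes Fbln5, an elastic fibre protein, rose by 0.87 ± 0.08 (adjusted p = 3.49e-05) and Tnc, which encodes tenascin C, fell by 0.42 ± 0.11 (0.0351), and 8 did not pass. With the probe set of next highest mean they were at -0.01 and 0.06, and Tnc passed in 8 of 23 other settings. Of 14 immediate early genes 1 rose, Fos (0.62 ± 0.16, adjusted p = 0.029), which passed in 14 of 24 other settings, and this count is also near the 10.0% of all genes.

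Of the 19 lists, the glucocorticoid-induced genes were the one with every measured member past the test. All 13 measured members rose in the averaged contrast, with a median of 0.90 and values from 0.39 to 1.85, among them the lipid transporter gene Mfsd2a (1.85 ± 0.12), Sgk1 (1.75 ± 0.22), the receptor co-chaperone gene Fkbp5 (1.46 ± 0.17) and the metallothionein gene Mt1 (0.70 ± 0.05). The list was drawn up knowing that such genes were higher on these fasted arrays, so its direction is not independent evidence. The difference of Ccn2, 1.53 ± 0.20, lay within this range and that of Ccn1, 0.49 ± 0.21, near its lower end. Ccn1 was below the range, at 0.28 ± 0.16, without knockout fasted replicate 2 and at 0.08 ± 0.20 with the endothelial score as a covariate. Of the 13 genes 2 passed with a term for the number series and 6 with the endothelial score. Both of these terms move with fasting and can take out part of a fasting difference. In the averaged genotype contrast and in the difference of the fasting differences 0 of the 204 genes of the 19 lists passed.

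**Figure D4:**
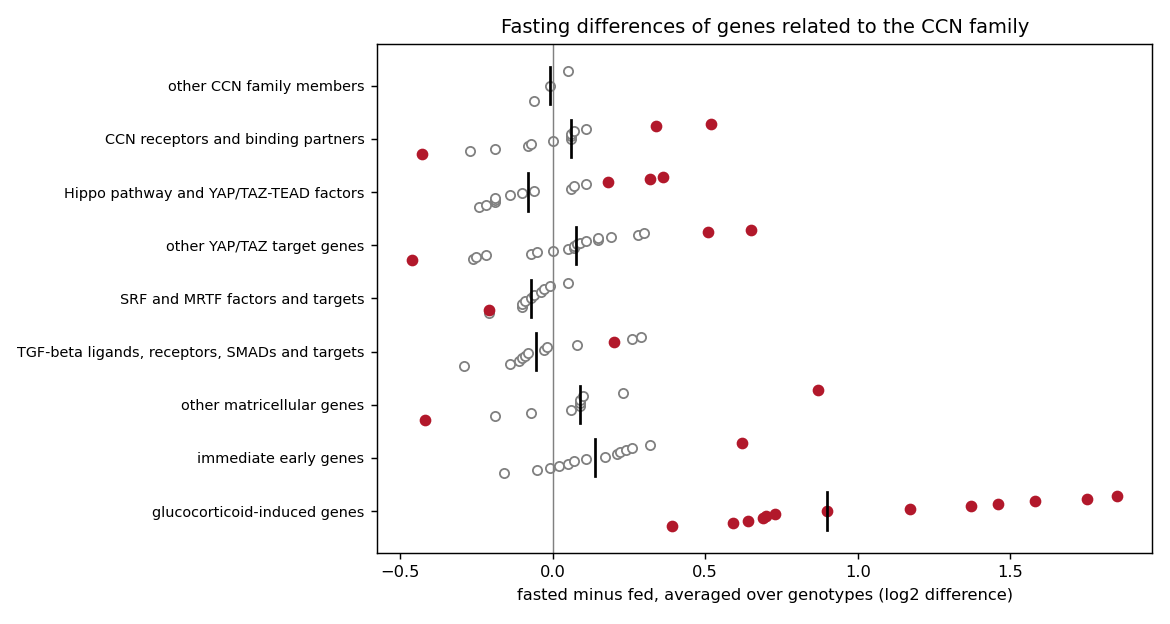
Fasted minus fed log2 differences, averaged over genotypes, of the measured genes of 9 lists, 1 point per gene; filled points passed at an adjusted p of 0.05 in limma, open points did not, and black bars are list medians. The 13 glucocorticoid-induced genes lie between 0.39 and 1.85, while the other lists have medians between -0.08 and 0.14.

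The genes with the profile most like each CCN gene were taken from 10258 genes in the upper part of the range of levels. Over 14 arrays Ccn2 was most like Kcnk1, a potassium channel gene (Pearson's r = 0.972, Spearman's rho = 0.933), Selenbp2 (0.968, 0.963), Sgk1 (0.961, 0.877), the transporter gene Abcc4 (0.959, 0.846) and Rhou, a GTPase gene (0.956, 0.847). These points share their groups, so any gene that differs between fasted and fed mice tends to a high value. With group means removed the closest were the sulfotransferase gene Sult1a1 (r = 0.953), Selenbp2 (0.942), Hs3st4 (0.917), Plch1 (0.887) and Kcnk1 (0.885). Without knockout fed replicate 4 and control fed replicate 1 they were at 0.835, 0.855, 0.707, 0.666 and 0.693. If the group means removed still held this pair of arrays, the other arrays of its groups share an offset. These lower values therefore do not show how much of the likeness holds without the pair.

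Ccn1 was most like Synm, an intermediate filament gene (r = 0.949, rho = 0.661), Sh2b2, an adaptor gene of insulin signalling (0.943, 0.814), Phactr3 (0.938, 0.596), Tma16 (0.937, 0.585) and Ripply2 (0.916, 0.688) over 14 arrays. Without control fasted replicate 3 and knockout fasted replicate 2 r was 0.760, 0.758, 0.727, 0.540 and 0.540. With group means removed Synm (0.951), Phactr3 (0.945), Gstm4 (0.936), Tma16 (0.934) and Sh2b2 (0.932) came first. Without the same pair of arrays r was then 0.861, 0.846, 0.799, 0.755 and 0.801. The other arrays of its groups share an offset if the group means removed still held that pair. These lower values therefore do not show how much of the likeness of Ccn1 holds without the pair.

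Ccn3 was most like Camk2a (r = 0.946, rho = 0.520), Ipcef1 (0.911, 0.610), Fam131a (0.910, 0.417), the calcineurin gene Ppp3ca (0.905, 0.628) and Icam5, an adhesion gene of forebrain neurons (0.896, 0.575). Without control fed replicate 1 and knockout fed replicate 4 r was 0.33 to 0.50, so this likeness rests on those arrays. With group means removed the order was Camk2a (0.969), Icam5 (0.967), Psd (0.963), Grasp (0.959) and Rasgef1a (0.959). Without the same pair of arrays r was then 0.855 to 0.955. If the group means removed still held that pair, the other arrays of its groups share an offset. The range of 0.855 to 0.955 therefore does not show that the likeness holds without the pair. These values are descriptions of genes picked for their likeness over 14 arrays and carry no test.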

How the data were processed

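The deposited values are log2 expression values of 45141 probe sets, made by the authors, whose processing notes to the archive name RMA and affy, with versions and genome build not given in the sources used here. RMA corrects background, normalises arrays to a common distribution and summarises probes, which compresses differences of low probe sets. Per the labels, 150 ng of RNA was used per array. Values were used as deposited. The platform annotation named 1 gene for 28898 probe sets, several for 551 and none for 15692; only the first were tested, and 0 symbols changed on matching to RefSeq. The fit was done in R 4.3.3 with limma 3.58.1 (lmFit on 4 groups over 14 arrays, contrasts, eBayes; residual degrees of freedom 10, prior 3.27), two-sided, with p-values adjusted over 17097 genes by the Benjamini-Hochberg method at a threshold of 0.05. The pipeline was tested on simulated data. Between arrays Pearson's r across probe sets was 0.9908 to 0.9968, and no pair shared more than 2.9% of values, so each array counted as 1 sample; their number limits the precision. The members and the 19 lists (222 genes, 204 measured) were chosen with earlier results of these data known. The list members named were up to 4 of those past the threshold with the smallest p in the averaged fasting contrast, or up to 2 where none passed; the 5 most similar genes per CCN gene were named in each kind of profile, passing over clone numbers (1 in all). Any other gene is said to be chosen after its values were seen. Alternatives were averaging each gene's probe sets, its probe set of next highest mean, dropping the 40% of genes lowest in level, only the groups compared, a trended and robust prior, arrays centred on their median, the number series or 1 of 3 list scores as a covariate, leaving out each array and, chosen after seeing the data, leaving out both control fed replicate 1 and knockout fed replicate 4.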

Additional observations from a re-analysis of the deposited data

Results flagged for a closer look

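The fed groups, of 4 arrays each, were searched in 88 combinations of a gene and a group. In 8 of them a value lay so far from the others that the gap to the nearest exceeded 0.829 of the group's range. For a single combination chance gives such a gap in about 1 of 20. The combinations share the same arrays, so this rate does not give the number that chance would give here. Ccn2 was at 6.92 on knockout fed replicate 4, against 5.67 on the nearest array of its group, and Ccn3 at 9.33 on control fed replicate 1, against 6.24. Among the other genes named, Sgk1 was at 10.79 on knockout fed replicate 4, against 9.41. Itgav was at 10.28, Agt at 9.91 and Fgfr3 at 10.29 on control fed replicate 1, against 10.04, 10.16 and 10.17 on the nearest array. Tead1 was at 7.76 and Ttr, a gene of the choroid plexus, at 9.99 on knockout fed replicate 1, against 7.96 and 13.04.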

How the results depend on the processing

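Leaving out 1 array at a time, the fasted minus fed difference of Ccn2 ran at 0.93 to 1.41 in knockout and 1.89 to 2.12 in control mice, and at 1.45 to 1.69 on average. For Ccn1 it ran at -0.20 to 0.43 in knockout mice, and for Ccn3 at -0.82 to 0.37 in control mice. The knockout minus control difference in fed mice ran at -0.03 to 0.13 for Ccn1, -0.11 to 0.37 for Ccn2 and -0.76 to 0.42 for Ccn3, and the difference of the fasting differences of Ccn3 at -0.94 to 0.25. Ccn5 ran at -0.03 to 0.10 on average. With the endothelial score as a covariate, Ccn1 was at -0.01 in knockout and 0.16 in control mice for fasting and at -0.11 for genotype in fed mice, Ccn5 at -0.05, and the difference of the fasting differences of Ccn3 at 0.0. With the choroid plexus score the fed genotype difference of Ccn2 was -0.02. With the cortex score Ccn3 was at 0.33 on average, 0.12 in knockout and 0.55 in control mice for fasting, and at 0.04 for genotype in fed mice, and without control fed replicate 1 and knockout fed replicate 4 at 0.06 on average, 0.37 in control mice and 0.12 for genotype. With the probe set of next highest mean Ccn1 was at -0.01 in knockout mice, and averaged fasting differences were -0.01 for Nt5e, -0.01 for Fbln5, 0.06 for Tnc, 0.08 for Cdh5 and 0.12 for Prox1. With the number series as a term they were -0.15 for Ccn5, 0.20 for Lum and 0.22 for Ccdc153. Of 204 list genes 42 passed in the averaged fasting contrast, 3 with the number series and 15 with the endothelial score. In the averaged genotype contrast 0 passed, and 1 did with the number series or without knockout fed replicate 1 (leave-one-out range 0 to 1). The causes of these changes were not tested. No paired analysis was possible because the numbers in the titles all differ and pair no samples. Signal over background limits Ccn1, Ccn5 and Ccn6, and the number of arrays limits all results.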
